A study of Mus musculus with 75 samples.

Results

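The 10 genes described here encode the kinases, and the partner proteins of those kinases, that stand between the TNF receptor and NF-kB. They are Chuk, Ikbkb and Ikbkg (the IKK complex), Ikbke and Tbk1 (the IKK-related kinases), Map3k7, Tab1 and Tab2 (the TAK1 complex), and Map3k8 and Map3k14 (kinases that act above IKK in particular settings). They were taken by gene symbol from a count table of 45706 gene entries, after the version was dropped from each Ensembl ID. All 10 were found, each as 1 entry, and all 10 passed the filter on low counts. RNA-seq reads per gene were compared in mouse embryonic fibroblasts (MEFs) from C57BL/6 embryos that are labelled as lacking p53, c-Rel and RelA (p53-/- crel-/- rela-/-), a genotype shared by every group. The cells were given a pBABE-puro retrovirus carrying nothing (EV, the empty vector), a mutant of RelA, or wild-type RelA (RelA-WT), kept overnight in medium with 0.5% serum, and then given 10 ng/ml TNF. RNA was taken after 0, 0.5, 1, 3 and 8 h.

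The constructs set against RelA-WT were EV, RelA-dTAD, RelA-dTA1, RelA-DB, RelA-dCterm, RelA-TA2_CI_S467A-dTA1, RelA-TA2_CI_S467A, RelA-TA2_S467A, RelA-TA2_CI-dTA1 and RelA-TA2_CI. By their names, RelA-dTAD and RelA-dTA1 lack the transactivation domains or the TA1 domain, and the TA2 forms carry changes in the TA2 domain. The libraries came as 2 deposited sets. EV, RelA-dTAD, RelA-dTA1 and RelA-WT had 1 library per time in each set, which makes 2 libraries per construct and time and 40 in all. RelA-DB and RelA-dCterm had 1 library per time in set 1 only, and the 5 TA2 forms 1 library per time in set 2 only, which brings the total to 75 libraries in 55 groups. The labels do not say whether the 2 libraries of a group came from separate cultures, so p-values measure the spread between these libraries only. Every construct was compared with its own unstimulated cells and no untreated cells were sampled at later times, so TNF and time alone cannot be told apart within a construct. The restored RelA was driven from a retrovirus and not from its own gene, and in bulk RNA fewer cells of a type and less RNA per cell cannot be told apart.

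As background, TNF binding assembles a ubiquitin-rich complex at TNFR1 that recruits the TAK1 complex and the IKK complex. TAK1 (Map3k7), held by TAB1 (Tab1) and by the ubiquitin-binding TAB2 (Tab2), activates IKK-beta (Ikbkb), which with IKK-alpha (Chuk) and the scaffold NEMO (Ikbkg) phosphorylates IkB proteins, marks them for destruction and frees NF-kB dimers such as RelA with p50. IKK-alpha also works downstream of NIK (Map3k14), whose protein is kept low by constant degradation, in the non-canonical pathway that processes p100. TBK1 (Tbk1) and IKK-epsilon (Ikbke) are related kinases best known for activating IRF3 in the interferon response and are recruited to the TNF receptor complex as well. TPL2 (Map3k8) is bound and restrained by p105 and, when IKK frees it, activates MEK and ERK. Most of this control is on protein, whereas the values below are RNA only.

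In short, the TNF responses of these genes are set out in 3 groups, by the constructs in which they were called. Map3k8, Ikbke and Tbk1 rose in RelA-WT cells, while in EV and RelA-dTAD cells Map3k8 and Tbk1 did not pass the main test at any time and Ikbke fell. In a fit with the replicate number as a block, Map3k8 also rose in RelA-dTAD cells at 3 h and over the 4 times. Map3k14, Chuk and Ikbkb rose in all 4 replicated constructs by 8 h. Map3k14 stood about 4.43-fold above unstimulated cells in EV cells and 1.87-fold in RelA-WT cells. Of the remaining genes, Map3k7 rose and Ikbkg and Tab1 fell in some or all of these constructs at 8 h, by at most 0.67 on the log2 scale. Tab2 did not pass the test against 0 h. Every fold change, error and adjusted p comes from edgeR's quasi-likelihood test, with Benjamini-Hochberg adjustment over the 13665 genes that entered the fit of the 40 libraries, is given on the log2 scale with its standard error, and is called when the adjusted p is under 0.05. Levels are in CPM, the read count scaled to the size of its library, here with TMM factors.

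The libraries held 4422396 to 6915919 assigned reads in set 1 and 10440202 to 22908738 in set 2, so a library of set 1 alone gives the less precise value. Rela itself stood at 15.6 and 16.7 CPM in unstimulated EV cells, against 1149 and 1473 CPM in unstimulated RelA-WT cells. RelA-dTAD and RelA-dTA1 cells had 846 to 1795 CPM, RelA-DB 658 CPM, RelA-dCterm 531 CPM and the TA2 forms 1151 to 1442 CPM. Rel, the gene of c-Rel, stood at 16.3 to 30.4 CPM and Trp53 at 26.3 to 45.0 CPM in the 15 unstimulated libraries, so the RNA counts do not show the loss of these 2 genes, and whether their reads fall outside a deleted stretch was not tested. Fibroblast markers summed to 29500 to 44223 CPM in the 75 libraries, against 1.62 to 5.90 CPM for macrophage markers, 2.42 to 13.5 CPM for epithelial markers and 30.2 to 59.6 CPM for endothelial markers. The endothelial sum at 8 h was 56.9 and 59.6 CPM in EV cells, 50.2 and 57.1 CPM in RelA-dTAD cells, 39.1 and 41.2 CPM in RelA-dTA1 cells and 34.8 and 40.7 CPM in RelA-WT cells, a sum made up almost wholly of 2 of the 4 listed genes, Kdr and Tek. The defining endothelial genes Pecam1 and Cdh5 did not pass 0.82 CPM in any library, and the part of this rise in the results was not tested.

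In unstimulated cells the 10 genes covered a wide range of levels per length. Tab2 was highest with a median of 36.7 CPM per kb of exon over the 15 unstimulated libraries, followed by Map3k7 with 17.9 CPM per kb, and their ranges did not overlap with each other or with any other member. Tbk1 had a median of 14.7 CPM per kb, Tab1 9.65, Chuk 9.32 and Ikbkg 6.90, and in this stretch of the order each gene's range touched that of its next neighbour. Per kb, Ikbkb with a median of 2.65 CPM stood below both Chuk and Ikbkg in every unstimulated library. In CPM without length the 3 genes of the IKK complex were close, with medians of 47.4 for Chuk, 50.6 for Ikbkb and 56.0 for Ikbkg. The exonic lengths used were 5087, 19078 and 8110 bases, so the low place of Ikbkb rests on its length. Ikbke stood at 2.20 CPM per kb and Map3k14 at 2.02 CPM per kb, and these overlapped. Map3k8 was the lowest with 0.624 CPM per kb and a range of 0.351 to 0.745. Before TNF, none of the 10 genes differed between EV, RelA-dTAD or RelA-dTA1 cells and RelA-WT cells (edgeR, every adjusted p = 1, log2 differences between -0.22 and 0.28). Among all genes tested the same comparison called 0.563% in EV cells, 0.0293% in RelA-dTAD cells and 0% in RelA-dTA1 cells.

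Taken over the 4 times after TNF, 2 of the 10 genes rose and 1 fell in EV cells, where 8.42% of all genes tested rose and 5.1% fell. In RelA-dTAD cells 2 rose and 1 fell, beside 6.7% and 4.03% of all genes. In RelA-dTA1 cells 2 rose and 1 fell, beside 6.83% and 3.26%. In RelA-WT cells 5 rose and 1 fell, beside 6.26% and 2.42%. The median log2 response of the 10 genes was 0.08 in EV cells and 0.28 in RelA-WT cells, against -0.02 over all genes in each. Without the 8 h libraries the count was 0 in EV cells, 0 in RelA-dTAD cells and 2 in RelA-WT cells, and it was as low as 1 in EV, 0 in RelA-dTAD, 0 in RelA-dTA1 and 1 in RelA-WT cells when 1 replicate of a construct was left out. At 0.5 h 0 rose in EV (0.402% of all genes) and RelA-dTAD cells (0.439%) and 1 rose in RelA-dTA1 (0.615%) and RelA-WT cells (0.776%). At 1 h 0 rose in EV (0.768%) and RelA-dTAD cells (0.534%), 1 in RelA-dTA1 (1.41%) and 2 in RelA-WT cells (2.54%). At 3 h 2 rose in EV (3.02%), 1 in RelA-dTAD (2.28%), 4 in RelA-dTA1 (9.58%) and 5 in RelA-WT cells (10.5%). With the replicate number as a block, which the data pair, the counts at these times were larger, as they were over all genes. At 1 h 1 rose in EV (1.72%), 1 in RelA-dTAD (1.58%) and 2 in RelA-dTA1 cells (3.29%), and 3 rose and 1 fell in RelA-WT cells (4.49% and 2.31%). At 3 h 2 rose and 1 fell in EV (9.23% and 7%), 3 rose and 1 fell in RelA-dTAD (7.38% and 5.06%), 6 rose and 1 fell in RelA-dTA1 (17.1% and 13.4%), and 7 rose and 2 fell in RelA-WT cells (16.9% and 14.1%). For the mean of the 4 times the block gave 5 that rose and 1 that fell in RelA-dTA1 cells (15.3% and 12.5%). It gave 2 and 2 in EV, 3 and 1 in RelA-dTAD and 6 and 1 in RelA-WT cells, where more of all genes were called too. At 8 h alone, without the block, 4 rose and 3 fell in EV cells (25.6% and 23.1% of all genes), 4 rose and 3 fell in RelA-dTAD cells (24.4% and 22.5%), 6 rose and 1 fell in RelA-dTA1 cells (19.4% and 15.3%), and 6 rose and 0 fell in RelA-WT cells (15.8% and 11.6%). The block changed these 8 h counts in RelA-dTA1 and RelA-WT cells and left those of EV and RelA-dTAD cells as they were. The shares of all genes called at 8 h with the block are not given here, so its 8 h counts are not set out.

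Chuk, which encodes IKK-alpha (ENSMUSG00000025199.14, mm10 chr19:44073335-44107480, minus strand), rose in all 4 replicated constructs at 8 h. EV cells held 94.4 and 88.7 CPM at 8 h, against 43.4 and 48.5 CPM at 0 h (set 1 and set 2 in this and the following pairs). RelA-WT cells held 72.9 and 65.0 CPM at 8 h, against 45.5 and 47.4 CPM at 0 h. In each of the 4 constructs both 8 h libraries stood above both unstimulated ones, and the 8 h libraries of EV cells stood above those of RelA-WT cells. The log2 change at 8 h was 1.03 ± 0.12 in EV cells (adjusted p = 1.18e-07, edgeR), 0.97 ± 0.12 in RelA-dTAD cells (2.93e-07), 0.55 ± 0.12 in RelA-dTA1 cells (0.000662) and 0.56 ± 0.12 in RelA-WT cells (0.000795). The difference from RelA-WT at 8 h was 0.46 ± 0.17 in EV cells with an adjusted p of 0.0544, which became 0.0149 with the replicate number as a block, and 0.41 ± 0.16 in RelA-dTAD cells with an adjusted p of 0.115, or 0.0398 with the block. The 8 h call ended in RelA-dTA1 cells without replicate 1 (adjusted p = 0.192) and in RelA-WT cells without replicate 1 (0.0798). At 3 h the change was called in EV cells (0.43, adjusted p = 0.0335) and in RelA-WT cells (0.43, adjusted p = 0.0117), but in neither with no filter on low counts (0.129 and 0.0643). The EV call ended without EV replicate 1 (0.26, adjusted p = 0.842), EV replicate 2 (0.107) or RelA-dTAD replicate 2 (0.0572), and the RelA-WT call without RelA-WT replicate 1 (0.27, adjusted p = 0.45). With the block Chuk was also called at 3 h in RelA-dTAD (0.39, adjusted p = 0.0753 without the block and 0.015 with it) and RelA-dTA1 cells (0.30, 0.094 and 0.038), and over the 4 times in RelA-dTA1 cells (0.24, 0.116 and 0.0465).

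Ikbkb, the gene of IKK-beta (ENSMUSG00000031537.13, mm10 chr8:22659212-22706589, minus strand), also rose at 8 h in all 4 constructs. Over all 11 constructs the 15 libraries at 8 h held 59.3 to 72.3 CPM, against 47.9 to 54.8 CPM in the 15 libraries at 0 h, and the ranges did not overlap. The log2 change at 8 h was 0.44 in EV cells (adjusted p = 0.00136, edgeR), 0.44 in RelA-dTAD cells (0.00145), 0.49 in RelA-dTA1 cells (0.0009) and 0.43 in RelA-WT cells (0.00371). Each of these calls ended when 1 replicate was left out, with adjusted p of 0.0719 without EV replicate 1, 0.0777 without RelA-dTAD replicate 2, 0.0702 without RelA-dTA1 replicate 1 and 0.214 without RelA-WT replicate 1. At 3 h RelA-WT cells already held 62.4 and 65.8 CPM, against 48.1 and 49.7 CPM at 0 h, while EV cells held 46.9 and 53.7 CPM at 3 h, against 49.8 and 51.8 CPM at 0 h. The 3 h change was called in RelA-WT cells (0.40 ± 0.11, adjusted p = 0.0112, or 0.114 with no filter on low counts, 0.164 without RelA-WT replicate 1 and 0.164 without replicate 2), and the difference of EV from RelA-WT (-0.40 ± 0.15) had an adjusted p of 0.215. The mean Ikbkb response of the 4 times passed with the block only in RelA-dTA1 (0.21, adjusted p = 0.117 without the block and 0.045 with it) and RelA-WT cells (0.23, 0.099 and 0.0296).

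Ikbkg encodes NEMO, the scaffold that joins the IKK kinases to ubiquitin chains (ENSMUSG00000004221.14, mm10 chrX:74393290-74453854, plus strand). It fell at 8 h in EV and RelA-dTAD cells. EV cells held 42.8 and 42.3 CPM at 8 h, against 65.5 and 53.2 CPM at 0 h, and RelA-dTAD cells held 39.1 and 44.2 CPM, against 63.0 and 52.7 CPM. RelA-WT cells held 57.5 and 52.2 CPM at 8 h, against 62.9 and 54.9 CPM at 0 h, and their 8 h libraries stood above every 8 h library of EV and RelA-dTAD cells. The log2 change was -0.44 ± 0.15 in EV cells (adjusted p = 0.0165, edgeR), -0.44 ± 0.15 in RelA-dTAD cells (0.0157), -0.18 ± 0.14 in RelA-dTA1 cells (0.354) and -0.10 ± 0.15 in RelA-WT cells (0.651). The differences from RelA-WT, -0.34 ± 0.21 in both EV and RelA-dTAD cells, were not called (adjusted p = 0.302 and 0.345), and the falls were not called without EV replicate 1 (0.266) or RelA-dTAD replicate 1 (0.365). At 3 h the value in RelA-WT cells, -0.28 ± 0.15, was called with the block only (adjusted p = 0.219 without it and 0.0161 with it). Ikbkg shares 418 exonic bases, 5.15% of its exonic length, with G6pdx on the opposite strand, and whether counting used strand is not given in the sources used here, so reads in that stretch cannot be assigned to 1 of them. Across the 20 group means of the replicated constructs, log2 CPM of Chuk followed that of Ikbkb (Pearson r = 0.839) and ran against that of Ikbkg (r = -0.882). These means share libraries and depth, so the values are descriptions.

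**Figure D1:**
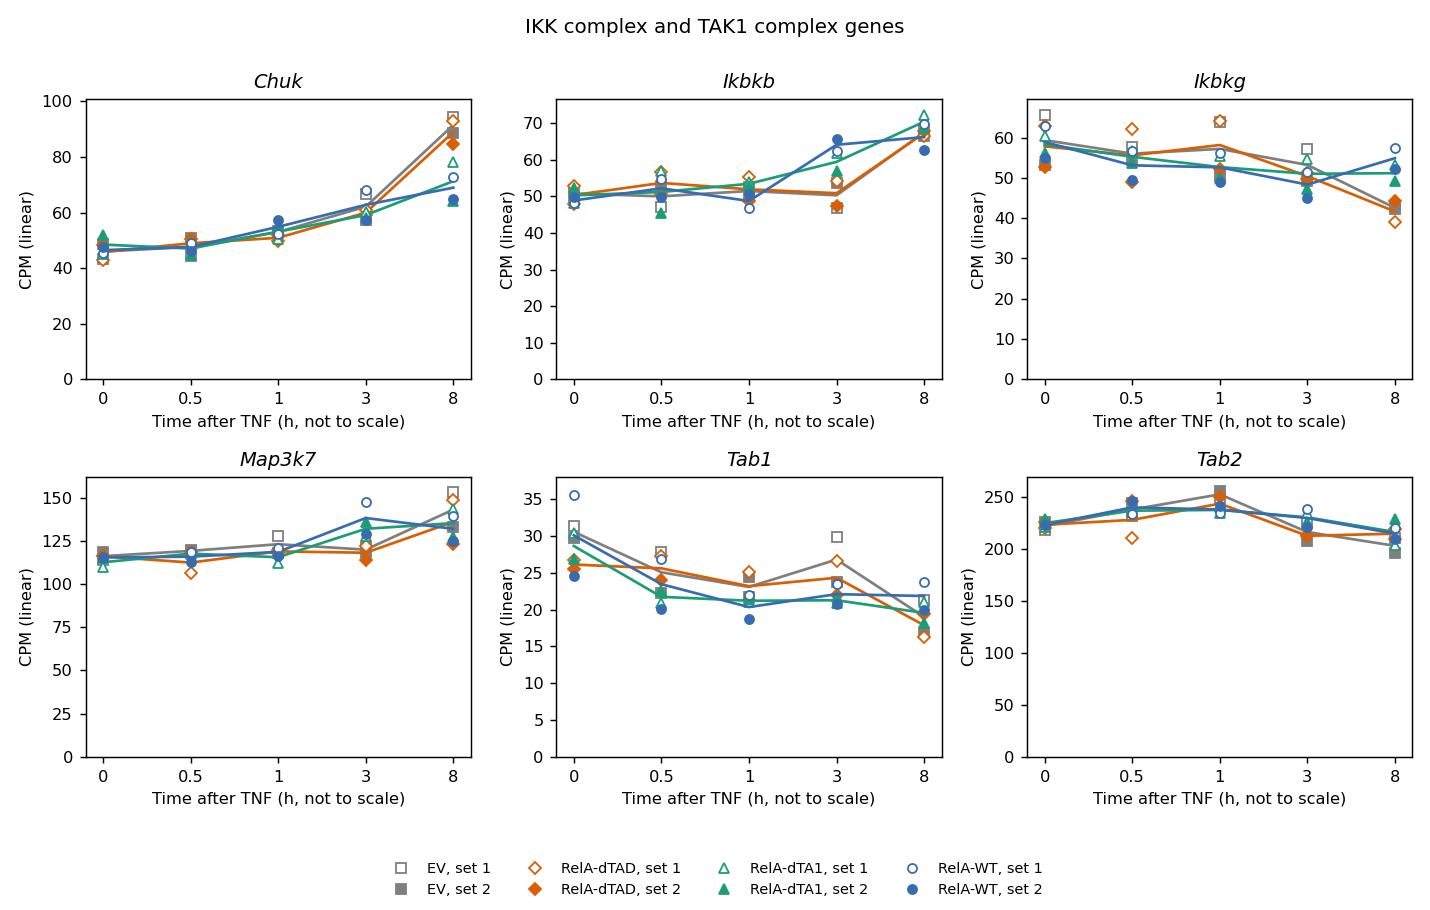
Levels in CPM (vertical axis) of the 3 IKK complex genes and the 3 TAK1 complex genes against hours after TNF in the replicated constructs. Open points are set 1, filled points set 2 and lines join the means of the 2 libraries. Chuk and Ikbkb rise by 8 h in every construct, Ikbkg is lowest at 8 h in EV and RelA-dTAD cells, and Tab2 stays between 196 and 273 CPM.

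Of the TAK1 complex, Map3k7 and Tab1 moved in opposite directions by 8 h and Tab2 did not pass the test against 0 h at any time. Map3k7, the gene of TAK1 (ENSMUSG00000028284.11, mm10 chr4:31964097-32023467, plus strand), held 153 and 133 CPM in EV cells at 8 h, against 114 and 119 CPM at 0 h, and 139 and 125 CPM in RelA-WT cells at 8 h, against 115 and 115 CPM at 0 h. Both 8 h libraries stood above both unstimulated ones in each of these constructs. The log2 change at 8 h was 0.33 ± 0.10 in EV cells (adjusted p = 0.00549, edgeR), 0.24 ± 0.10 in RelA-dTAD cells (0.0389), 0.27 ± 0.10 in RelA-dTA1 cells (0.0313) and 0.19 ± 0.10 in RelA-WT cells (0.147). With no filter on low counts none of the 4 was called (0.0546 in EV, 0.208 in RelA-dTAD and 0.19 in RelA-dTA1 cells), and the EV call ended without EV replicate 1 (0.305), the RelA-dTAD call in 6 of the 8 fits that leave out 1 replicate (up to 0.61) and the RelA-dTA1 call without RelA-dTA1 replicate 1 (0.558) or 2 (0.052). At 3 h Map3k7 was called with the block only, in RelA-dTA1 (0.25, adjusted p = 0.0864 without it and 0.0175 with it) and RelA-WT cells (0.26, 0.0616 and 0.0166).

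Tab1, whose product binds TAK1 and helps it to activate itself (ENSMUSG00000022414.7, mm10 chr15:80133154-80161701, plus strand), was lower at 8 h than at 0 h in all 4 constructs. In RelA-dTAD cells of set 1 it stood at 1.02, 0.94 and 0.99 times its 0 h level at 0.5, 1 and 3 h. At 8 h EV cells held 21.3 and 16.8 CPM, against 31.4 and 29.8 CPM at 0 h, and RelA-WT cells held 23.7 and 20.02 CPM, against 35.6 and 24.6 CPM. In both constructs the 2 sets of values did not overlap, although the unstimulated RelA-WT libraries lay far apart. The fall at 8 h was -0.67 ± 0.18 in EV cells (adjusted p = 0.00425, edgeR), -0.51 in RelA-dTAD cells (0.0232) and -0.55 in RelA-dTA1 cells (0.0191), and the value in RelA-WT cells, -0.46, had an adjusted p of 0.0605, or 0.00656 with the replicate block. The calls ended without EV replicate 2 (0.126), either RelA-dTAD replicate (0.281 and 0.0737) and either RelA-dTA1 replicate (0.186 and 0.228). Taken over the 4 times, Tab1 fell by 0.44 in RelA-dTA1 cells (adjusted p = 0.0401) and by 0.45 in RelA-WT cells (0.0419), and the RelA-WT call was lost in all 8 fits that leave out 1 replicate and the RelA-dTA1 call in 4 of them (up to 0.592). With the block Tab1 was also called over the 4 times in EV cells (-0.38, adjusted p = 0.00264), at 1 h in RelA-WT cells (-0.55, 0.00881) and at 3 h in RelA-dTA1 (-0.40, 0.0201) and RelA-WT cells (-0.43, 0.0193). Tab2, which carries the complex to ubiquitin chains (ENSMUSG00000015755.14, mm10 chr10:7905653-7956230, minus strand), stayed between 196 and 273 CPM in all 75 libraries, and its log2 change from 0 h to 8 h was -0.09 ± 0.07 in EV cells (adjusted p = 0.313) and -0.06 ± 0.07 in RelA-WT cells (0.624). In a comparison added with these values in view, Tab2 fell between 1 and 8 h in EV cells by 0.29 ± 0.07. The adjusted p was 0.00227 (edgeR), or 0.0771 with no filter on low counts. Without EV replicate 2 the log2 value was -0.23 and was not called. The same comparison called 6268 of the 13665 genes tested in EV cells, in either direction.

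Ikbke, the gene of IKK-epsilon (ENSMUSG00000042349.11, mm10 chr1:131254343-131279606, minus strand), moved in opposite directions with and without the RelA transactivation domains. EV cells held 18.2, 17.4, 11.9, 12.0 and 6.69 CPM at 0, 0.5, 1, 3 and 8 h in set 1, and 20.5, 19.1, 18.1, 14.2 and 8.07 CPM in set 2. RelA-dTAD cells held 19.7, 23.6, 16.3, 14.5 and 8.56 CPM in set 1 and 20.8, 17.8, 17.4, 14.6 and 11.6 CPM in set 2. In both constructs the 8 h library was the lowest of its own set. RelA-dTA1 cells held 22.1, 17.7, 18.7, 30.6 and 25.6 CPM in set 1 and 22.6, 19.7, 20.8, 37.2 and 33.3 CPM in set 2. RelA-WT cells held 19.2, 19.3, 24.0, 35.5 and 31.6 CPM in set 1 and 18.2, 17.6, 27.0, 46.6 and 31.3 CPM in set 2. At 3 and 8 h every library of RelA-dTA1 and RelA-WT cells stood above every library of EV and RelA-dTAD cells, and in RelA-dTA1 and RelA-WT cells the 3 h library was the highest of its set.

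At 8 h Ikbke fell by 1.33 ± 0.19 on the log2 scale in EV cells (adjusted p = 3.66e-06, edgeR) and by 0.95 ± 0.18 in RelA-dTAD cells (0.000126), and it rose by 0.75 ± 0.17 in RelA-WT cells (0.00188). At 3 h it rose by 1.15 ± 0.17 in RelA-WT cells (2.27e-05) and by 0.63 in RelA-dTA1 cells (0.0119), and the values in EV cells (-0.55) and RelA-dTAD cells (-0.47) had adjusted p of 0.0857 and 0.172, or 0.0118 and 0.0193 with the replicate block. The block also called the values of 0.47 in RelA-WT cells at 1 h (0.228 without it and 0.0285 with it) and 0.42 in RelA-dTA1 cells at 8 h (0.0552 and 0.00348). The difference between the responses was tested itself. At 8 h the response was lower than in RelA-WT cells by 2.08 ± 0.26 in EV cells (adjusted p = 3.09e-06) and by 1.70 ± 0.25 in RelA-dTAD cells (4.24e-05). At 3 h it was lower by 1.70 ± 0.25 in EV cells (7.97e-05) and by 1.63 ± 0.24 in RelA-dTAD cells (0.000167). These 4 differences held in all 8 fits that leave out 1 replicate. At 1 h the differences were called with the block only, in EV (-0.79, 0.294 without it and 0.039 with it) and RelA-dTAD cells (-0.72, 0.447 and 0.0406). The RelA-WT rise at 8 h was not called without RelA-WT replicate 1 (0.0588) or 2 (0.0658), and the RelA-dTA1 rise at 3 h was not called without RelA-dTA1 replicate 1 (0.0836) or 2 (0.358).

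The Ikbke response of RelA-dTA1 cells was not called different from that of RelA-WT cells at 3 h (-0.53 ± 0.24, adjusted p = 1) or over the 4 times (-0.43 ± 0.19, unadjusted p = 0.035). In a comparison added with these values in view, it was higher than that of RelA-dTAD cells by 1.1 ± 0.24 at 3 h (adjusted p = 0.0159) and by 1.37 ± 0.25 at 8 h (0.000923), where 1.46% and 5.94% of all genes tested differed. The 3 h call was lost without any replicate of either construct (adjusted p = 0.0686 to 0.418), and the 8 h call without RelA-dTA1 replicate 2 (0.0828). RelA-dTAD and EV cells, compared in the same way, were not called different at 8 h (0.38 ± 0.26, adjusted p = 1). Genes whose log2 CPM most resembled that of Ikbke over the 20 group means were Cyp4v3 (r = 0.970), Lrrc4c (0.959) and Cyp26b1 (0.956). Ikbke shares 159 exonic bases with Gm28914 and 65 with Gm28913 on the opposite strand, which is 1.76% and 0.72% of its exonic length.

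Tbk1, the close relative of Ikbke (ENSMUSG00000020115.2, mm10 chr10:121546455-121586794, minus strand), rose in RelA-dTA1 and RelA-WT cells. At 3 h it stood at 62.1 and 64.0 CPM in RelA-dTA1 cells, against 42.3 and 47.9 CPM at 0 h, and at 66.0 and 67.0 CPM in RelA-WT cells, against 44.6 and 43.5 CPM at 0 h. EV cells held 41.1 and 48.1 CPM at 3 h, against 39.7 and 45.0 CPM at 0 h, and RelA-dTAD cells 47.2 and 45.6 CPM, against 45.4 and 46.8 CPM. The 3 h libraries of RelA-dTA1 and RelA-WT cells thus lay above those of EV and RelA-dTAD cells. The 3 h libraries of EV and RelA-dTAD cells lay close to their own unstimulated values. The log2 change at 3 h was 0.60 ± 0.10 in RelA-WT cells (adjusted p = 7.1e-05, edgeR), 0.50 ± 0.10 in RelA-dTA1 cells (0.000667), 0.09 ± 0.10 in EV cells (0.757) and 0.01 ± 0.10 in RelA-dTAD cells (0.995). At 8 h it was 0.52 ± 0.10 in RelA-WT cells (0.000286) and 0.41 ± 0.10 in RelA-dTA1 cells (0.00178), and not called in the others. Without RelA-dTA1 replicate 1 the RelA-dTA1 rises were not called at 3 h (0.076) or 8 h (0.125).

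The difference of the Tbk1 response from RelA-WT at 3 h was -0.52 ± 0.14 in EV cells (adjusted p = 0.0328, edgeR) and -0.59 ± 0.14 in RelA-dTAD cells (0.0143). With no filter on low counts neither was called (0.471 and 0.261), and with 1 replicate left out the EV call was lost in 7 of 8 fits, with adjusted p up to 0.251, and the RelA-dTAD call in 4 of 8, with adjusted p up to 0.218. At 8 h the difference was -0.32 ± 0.14 in EV cells (0.119) and -0.39 ± 0.14 in RelA-dTAD cells (0.0701, or 0.0216 with the replicate block). The mean RelA-dTA1 response of 0.22 was called with the block only (0.0699 without it and 0.0207 with it). Genes most like Tbk1 over the 20 group means were Bid (r = 0.979), Gm16685 (0.976) and Fam49a (0.975).

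The stretch around the start site is shown for 4 of the genes, because their RNA differed in direction or size and the sequence is the same in every construct. Promoter sequences of 7 of the 10 genes were read from RefSeq (GRCm38.p6), 250 bases before to 50 after the start, on the gene's strand. Ikbkb, Tab1 and Map3k8 were not among the promoters read, so their start sites were not searched for motifs. Ikbke rose with RelA-WT and fell without it (chr1:131279514-131279813, minus strand), Tbk1 rose with RelA-WT (chr10:121586745-121587044, minus strand), Map3k14 rose most without it (chr11:103267352-103267651, minus strand), and Map3k7 changed little (chr4:31963857-31964156, plus strand). Capitals mark a match to the AP-1-type motif TGANTCA or to the NF-kB motifs searched.
Ikbke: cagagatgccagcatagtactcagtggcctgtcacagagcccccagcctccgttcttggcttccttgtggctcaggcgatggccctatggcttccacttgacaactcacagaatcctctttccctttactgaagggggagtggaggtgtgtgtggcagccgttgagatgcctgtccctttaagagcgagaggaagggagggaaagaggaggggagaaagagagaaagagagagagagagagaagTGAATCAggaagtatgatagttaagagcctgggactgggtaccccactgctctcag
Tbk1: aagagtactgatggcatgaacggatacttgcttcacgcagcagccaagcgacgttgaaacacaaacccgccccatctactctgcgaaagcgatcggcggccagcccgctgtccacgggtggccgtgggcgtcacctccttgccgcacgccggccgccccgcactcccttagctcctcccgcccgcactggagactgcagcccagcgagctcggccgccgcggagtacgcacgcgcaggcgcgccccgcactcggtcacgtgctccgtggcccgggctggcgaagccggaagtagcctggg
Map3k14: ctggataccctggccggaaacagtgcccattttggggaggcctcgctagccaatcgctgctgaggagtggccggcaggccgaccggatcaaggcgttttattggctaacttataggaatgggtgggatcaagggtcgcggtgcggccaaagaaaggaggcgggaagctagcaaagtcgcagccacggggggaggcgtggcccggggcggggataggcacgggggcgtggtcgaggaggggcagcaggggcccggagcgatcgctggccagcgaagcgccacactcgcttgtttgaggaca
Map3k7: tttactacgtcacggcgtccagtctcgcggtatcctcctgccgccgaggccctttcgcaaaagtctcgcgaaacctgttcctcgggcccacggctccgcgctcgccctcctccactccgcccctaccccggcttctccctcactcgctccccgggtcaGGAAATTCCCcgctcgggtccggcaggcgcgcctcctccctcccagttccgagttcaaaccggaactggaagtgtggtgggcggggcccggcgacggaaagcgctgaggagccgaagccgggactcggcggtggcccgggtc

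On both strands, 4 motifs were searched: TGANTCA, GGGNNTTCC, a 10-base NF-kB consensus and a more degenerate form of it that overlaps with the other NF-kB motifs. They were found in 7.81%, 5.82%, 4.51% and 26.8% of the 32851 promoters searched, each of the same length. The window of Ikbke held TGANTCA at positions -6 to 0 counted from the start site, with none of the NF-kB motifs. That of Map3k7 held the 10-base NF-kB consensus at -92 to -83, although its RNA was among the least changed. Those of Tbk1, Map3k14 and both Tab2 entries held none of the 4, and that of Chuk held only the degenerate form, at -66 to -57 and at 5 to 14. Of the 4 entries of Ikbkg, 3 held TGANTCA and 3 the degenerate form. A match is a description of letters and not of binding, and sites outside the 300 bases were not searched.

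Map3k14, which encodes NIK and lies on mm10 chr11:103219762-103267472 on the minus strand (ENSMUSG00000020941.7), rose in every construct and went furthest where RelA was absent or lacked its transactivation domains. EV cells held 20.6, 18.9, 28.9, 40.4 and 77.9 CPM at 0, 0.5, 1, 3 and 8 h in set 1, and 11.3, 16.4, 23.0, 33.7 and 58.2 CPM in set 2. RelA-dTAD cells held 16.2, 17.9, 26.6, 44.5 and 77.9 CPM in set 1 and 12.5, 13.5, 16.7, 30.4 and 58.0 CPM in set 2. In both constructs 8 h was the highest time in each set. RelA-dTA1 cells held 13.2, 17.1, 33.2, 35.9 and 44.6 CPM in set 1 and 12.8, 14.1, 21.4, 30.2 and 32.3 CPM in set 2. RelA-WT cells held 14.7, 16.9, 32.0, 22.9 and 27.8 CPM in set 1 and 12.4, 17.2, 26.6, 21.6 and 23.1 CPM in set 2. In RelA-WT cells the highest value of each set was at 1 h, and at 8 h the order EV and RelA-dTAD, RelA-dTA1, RelA-WT held within each set.

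The Map3k14 change at 8 h was 2.15 ± 0.28 in EV cells (adjusted p = 1.02e-06, edgeR), 2.28 ± 0.28 in RelA-dTAD cells (4.93e-07), 1.55 in RelA-dTA1 cells (0.000137) and 0.91 ± 0.29 in RelA-WT cells (0.0215). At 1 h it was called in RelA-WT cells (1.12 ± 0.29, 0.0257), and the values of 1.05 in RelA-dTA1, 0.73 in EV and 0.59 in RelA-dTAD cells were not called (0.0625, 0.53 and 1), although with the replicate block each was (3.1e-06, 0.00075 and 0.0294). At 3 h the RelA-WT value of 0.73 (0.0959, or 0.000222 with the block) and the difference of RelA-dTAD from RelA-WT of 0.67 (0.708, or 0.04996) were called with the block only. The response at 8 h exceeded that of RelA-WT cells by 1.24 ± 0.40 in EV cells (0.033) and by 1.37 ± 0.40 in RelA-dTAD cells (0.0248), and the difference in RelA-dTA1 cells, 0.65 ± 0.40, was not called (1). Both calls were lost when a replicate of either construct compared was left out, at adjusted p of 0.0514 to 0.23 for EV and 0.0725 to 0.213 for RelA-dTAD, and the 8 h rise in RelA-WT cells was lost without RelA-WT replicate 1 (0.232) or 2 (0.18), as was its 1 h rise (0.465 and 0.559). In a comparison added with these values in view, Map3k14 rose further between 1 and 8 h in EV cells (1.42, adjusted p = 0.000169) and in RelA-dTAD cells (1.69, adjusted p = 2.43e-05). The same comparison called 6268 of the 13665 genes tested in EV cells and 5938 in RelA-dTAD cells, in either direction. Its nearest genes by log2 CPM were Ccn4 (r = 0.974), Cttnbp2nl (0.962) and Pvr (0.959). It shares 135 exonic bases, 2.06% of its exonic length, with 1700028N14Rik on the same strand.

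Map3k8, the gene of TPL2 (ENSMUSG00000024235.8, mm10 chr18:4331327-4353015, minus strand), had the largest TNF response of the 10 genes in RelA-WT cells and was also the least expressed, with 6 to 361 reads per library. EV cells held 2.76, 3.42, 3.52, 1.62 and 1.43 CPM at 0, 0.5, 1, 3 and 8 h in set 1, and 1.85, 3.36, 1.42, 2.73 and 2.48 CPM in set 2. RelA-dTAD cells held 3.23, 5.45, 4.90, 4.65 and 3.26 CPM in set 1 and 2.81, 3.51, 4.05, 6.06 and 4.68 CPM in set 2. Neither construct passed 6.06 CPM at any time. RelA-dTA1 cells held 3.20, 7.05, 12.7, 11 and 6.66 CPM in set 1 and 3.10, 10.4, 11.5, 12.0 and 8.77 CPM in set 2. RelA-WT cells held 3.35, 18.0, 21.7, 12.8 and 8.31 CPM in set 1 and 2.04, 19.3, 19.8, 11.7 and 7.50 CPM in set 2. RelA-WT cells were thus near their highest by 0.5 h, RelA-dTA1 cells were lower than they were at 0.5 and 1 h, and the libraries of the 2 constructs came close together at 3 h.

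In RelA-WT cells Map3k8 rose by 2.86 ± 0.31 at 0.5 h (adjusted p = 1.31e-06, edgeR), 3.01 ± 0.31 at 1 h (2.95e-07), 2.24 ± 0.32 at 3 h (1.24e-05) and 1.60 ± 0.32 at 8 h (0.000583). In RelA-dTA1 cells it rose by 1.51 ± 0.30 at 0.5 h (0.00794), 1.95 ± 0.30 at 1 h (0.000158), 1.89 ± 0.30 at 3 h (6.09e-05) and 1.33 ± 0.30 at 8 h (0.00136). It was the only one of the 10 genes that rose at 0.5 h. In EV cells the change at 1 h was 0.00 ± 0.31 (adjusted p = 1), and in RelA-dTAD cells it was 0.56 ± 0.32 (1) at 1 h and 0.88 ± 0.31 (0.147, or 0.0119 with the replicate block) at 3 h and 0.62 ± 0.26 (0.13, or 0.0246 with the block) over the 4 times. From 1 h to 8 h the level in RelA-WT cells fell by 1.41 ± 0.28 (adjusted p = 0.000583), in a comparison added with these values in view that called 25% of all genes. Without RelA-WT replicate 2 the 8 h rise was not called (0.0801), and without RelA-dTA1 replicate 2 those of RelA-dTA1 were not called at 0.5, 1 and 8 h (1, 0.0704 and 0.138), nor without replicate 1 at 0.5 h (0.151).

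The Map3k8 response was below that of RelA-WT cells at 1 h by 3.01 ± 0.49 in EV cells (adjusted p = 0.00111, edgeR) and by 2.44 ± 0.45 in RelA-dTAD cells (0.00442). At that time 0.6% of all genes tested differed in either construct, and Map3k8 was the one member among them. At 0.5 h the differences were -2.26 ± 0.47 in EV cells (0.0709, or 0.00635 with the replicate block) and -2.32 ± 0.45 in RelA-dTAD cells (0.0311). At 3 h they were -2.20 ± 0.48 in EV cells (0.00654) and -1.36 in RelA-dTAD cells (0.127, or 0.0244 with the block), and at 8 h -1.66 ± 0.50 in EV cells (0.0218) and -1.11 in RelA-dTAD cells (0.124, or 0.0486 with the block). The difference in RelA-dTA1 cells over the 4 times, -0.75 ± 0.36, was not called (unadjusted p = 0.048). These calls were lost without RelA-WT replicate 2, a fit that leaves 1 RelA-WT library per time. The differences were then -2.70 at 1 h, -1.91 at 3 h and -1.42 at 8 h for EV. For RelA-dTAD they were -1.89 at 0.5 h and -2.13 at 1 h. Without EV replicate 1 the EV calls also ended at 3 h (0.114) and 8 h (0.195), without RelA-dTAD replicate 2 the RelA-dTAD call at 1 h (0.164), and the RelA-dTAD call at 0.5 h was lost in 6 of the 8 fits. Genes most like Map3k8 were Irf1 (r = 0.962), Cxcl2 (0.953) and Tnfaip3 (0.924).

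**Figure D2:**
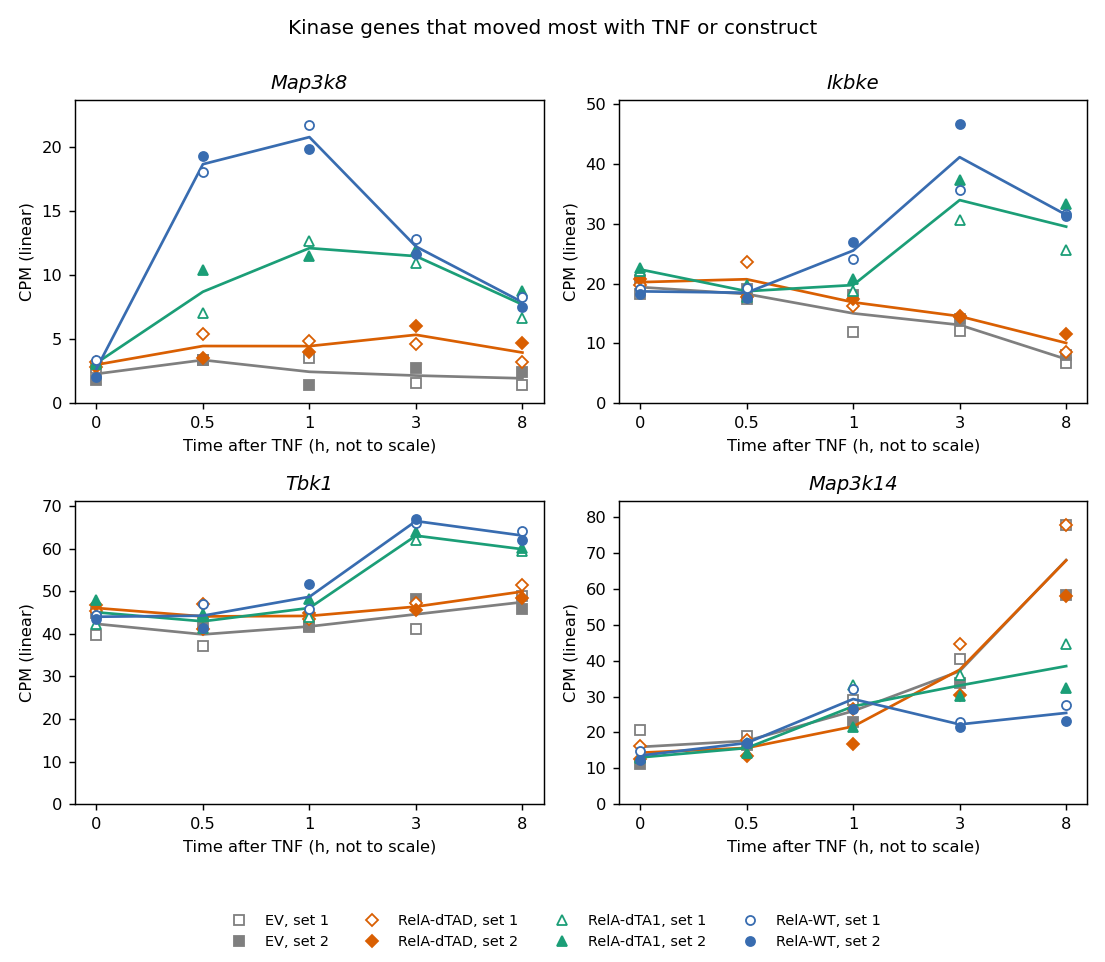
Levels in CPM (vertical axis) of Map3k8, Ikbke, Tbk1 and Map3k14 against hours after TNF in EV, RelA-dTAD, RelA-dTA1 and RelA-WT cells. Open points are set 1, filled points set 2 and lines join the means of the 2 libraries. Map3k8 reaches 21.7 and 19.8 CPM at 1 h in RelA-WT cells, Ikbke and Tbk1 separate the constructs from 3 h on, and Map3k14 at 8 h is highest in EV and RelA-dTAD cells.

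Set side by side, the number of the 10 genes whose response differed from RelA-WT was larger at 3 and 8 h than before in EV and RelA-dTAD cells, as was the number of all genes. In EV cells it was 0 at 0.5 h, 1 at 1 h, 3 at 3 h and 3 at 8 h, where 0.0805%, 0.6%, 3.67% and 17.6% of all genes differed. In RelA-dTAD cells it was 1, 1, 2 and 2, where 0.0805%, 0.6%, 3.1% and 12.2% of all genes differed. With the replicate block it was 1 at 0.5 h and 2 at 1 h in EV cells (0.146% and 1.45% of all genes), and 2 at 1 h, 4 at 3 h and 5 at 8 h in RelA-dTAD cells (1.65%, 8.35% and 27.8%). In EV cells at 8 h the block added Chuk, so the number there was above 3, beside a share of all genes not given here. Over the 4 times together, without the block, it was 2 in each, Map3k8 and Ikbke, where 1.77% of all genes differed in EV and 1.04% in RelA-dTAD cells. The mean response of Ikbke was lower than in RelA-WT cells by 1.16 ± 0.20 in EV cells (adjusted p = 0.00131, edgeR) and by 1.00 ± 0.19 in RelA-dTAD cells (0.00758). That of Map3k8 was lower by 2.28 ± 0.40 in EV cells (0.00169) and by 1.81 ± 0.37 in RelA-dTAD cells (0.0124). Without RelA-WT replicate 2 none of these 4 was called, at adjusted p of 0.082 and 0.266 for Ikbke and 0.118 and 0.443 for Map3k8 in EV and RelA-dTAD cells. The RelA-dTAD calls were also lost without RelA-WT replicate 1 (0.0901 for Ikbke and 0.0881 for Map3k8) and without either RelA-dTAD replicate.

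In RelA-dTA1 cells none of the 10 genes was called different from RelA-WT at any time, where 0.0146% of all genes differed at 0.5 h and 0% at 1, 3 and 8 h, and neither was any other gene over the 4 times by edgeR's quasi-likelihood test (0%) or by DESeq2. DESeq2 called 8 genes at 1 h and 1 at 3 h. At an unadjusted p under 0.05 edgeR had 219 genes at 1 h, 183 at 3 h and 265 at 8 h. For the mean of the 4 times it had 133 genes, Ikbke and Map3k8 among them, and with the replicate block it called 4, none of them a member. EV, RelA-dTAD and RelA-dTA1 cells were all compared with the same RelA-WT libraries, so their differences are not independent of each other.

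**Figure D3:**
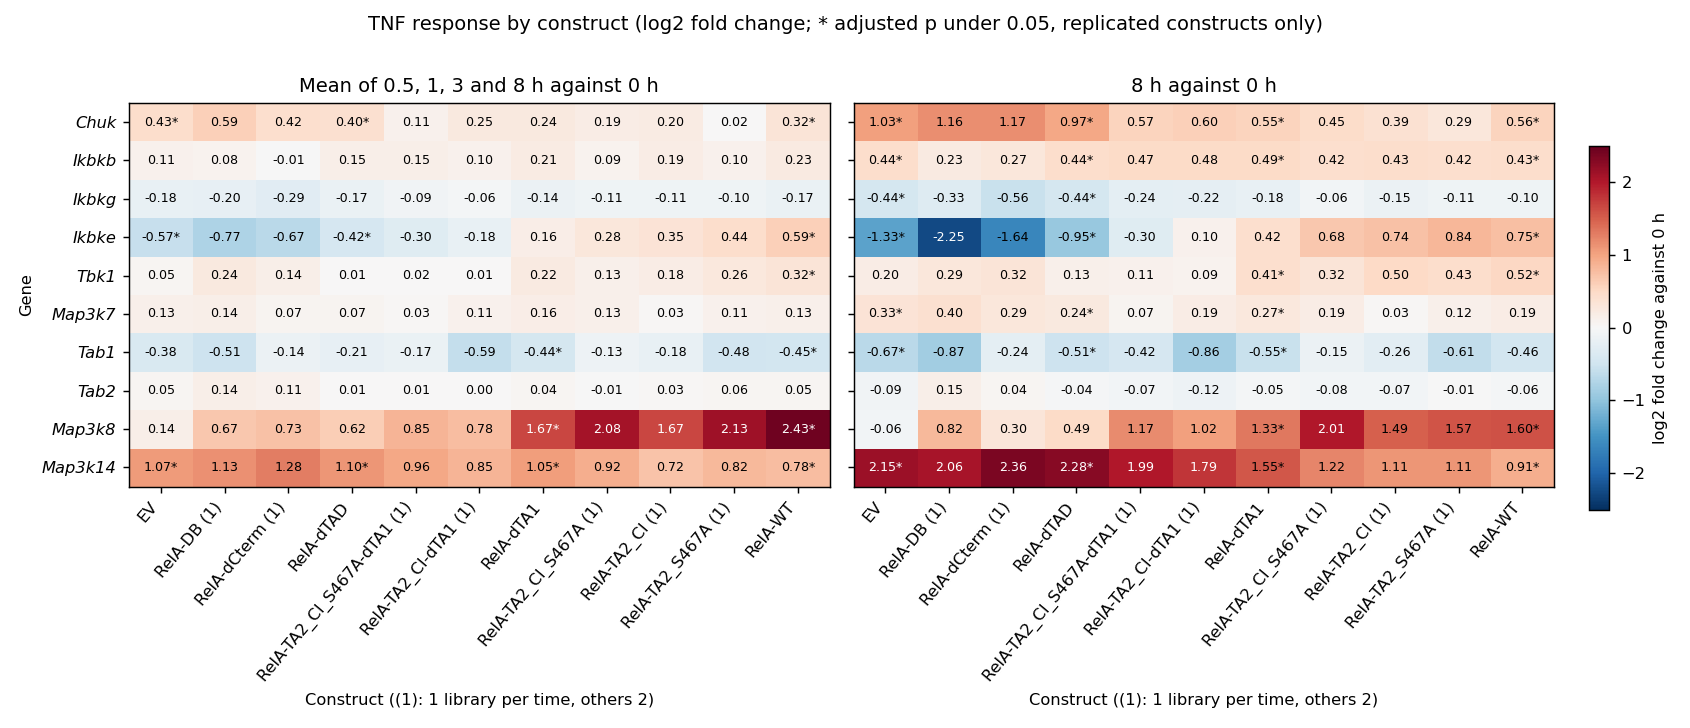
Log2 TNF response of the 10 genes (rows) in the 11 constructs (columns), as the mean of the 4 times after TNF and at 8 h. Colour gives the direction and size, (1) marks constructs with 1 library per time, and stars mark adjusted p under 0.05 in the replicated constructs. Map3k8 is strongest in RelA-WT cells with 2.43 over the 4 times, Ikbke at 8 h is -1.33 in EV cells and 0.75 in RelA-WT cells, and Map3k14 is positive in every column.

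The 7 constructs with 1 library per time were fitted with all 75 libraries (15090 genes tested), on the assumption that they vary like the replicated ones. Ikbke in RelA-DB cells held 18.2, 18.5, 15.3, 12.0 and 3.82 CPM at 0, 0.5, 1, 3 and 8 h, and in RelA-dCterm cells 20.2, 20.2, 15.9, 12.3 and 6.49 CPM. In both the lowest value was at 8 h, as in EV cells. The response at 8 h was below that of RelA-WT cells by 3.00 ± 0.39 in RelA-DB cells (adjusted p = 1.23e-05, edgeR) and by 2.39 ± 0.36 in RelA-dCterm cells (8.14e-05), where 10.3% and 9.05% of all genes differed. Over the 4 times it was below by 1.35 ± 0.26 in RelA-DB cells (0.0145) and by 1.26 ± 0.26 in RelA-dCterm cells (0.0222), where Ikbke was the 1 member called and 0.49% and 0.384% of all genes differed. Against the RelA-WT libraries of set 1 alone the 8 h differences were -2.92 and -2.33. Compared with EV cells, an added comparison, neither construct was called different for Map3k14 at 8 h (-0.05 ± 0.50 in RelA-DB and 0.25 ± 0.50 in RelA-dCterm cells, adjusted p = 1 in both).

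Among the TA2 forms, Ikbke followed whether TA1 was also removed. At 8 h RelA-TA2_CI-dTA1 held 19.3 CPM and RelA-TA2_CI_S467A-dTA1 17.0 CPM, against 18.0 and 21.0 CPM in their own unstimulated libraries. RelA-TA2_CI held 30.5 CPM, RelA-TA2_S467A 38.1 CPM and RelA-TA2_CI_S467A 31.7 CPM at 8 h, against 18.3, 21.3 and 19.9 CPM at 0 h. The forms without TA1 thus ended near their starting level and the forms with TA1 above it. Map3k8 at 1 h stood at 5.13 CPM in RelA-TA2_CI-dTA1 and 3.50 CPM in RelA-TA2_CI_S467A-dTA1 cells, against 11.5 CPM in RelA-TA2_CI, 15.9 CPM in RelA-TA2_S467A and 10.0 CPM in RelA-TA2_CI_S467A cells. At 0.5 h RelA-TA2_S467A held 20.9 CPM, within the reach of the 18.0 and 19.3 CPM of RelA-WT cells, and RelA-TA2_CI held 8.60 CPM. Over the 4 times Map3k8 rose by 2.13 ± 0.35 in RelA-TA2_S467A cells (adjusted p = 0.000426, edgeR), by 2.08 ± 0.36 in RelA-TA2_CI_S467A cells (0.000906) and by 1.67 ± 0.36 in RelA-TA2_CI cells (0.00985). In RelA-TA2_CI-dTA1 and RelA-TA2_CI_S467A-dTA1 cells the values of 0.78 ± 0.34 and 0.85 ± 0.33 were not called (0.284 and 0.335), or 0.0446 and 0.0199 with the replicate block.

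No member was called different from RelA-WT in any TA2 form over the 4 times, where 0% to 0.106% of all genes differed. With the replicate block, Ikbke and Map3k8 were called in RelA-TA2_CI-dTA1 (-0.76, adjusted p = 0.0262, and -1.64, adjusted p = 0.0183) and in RelA-TA2_CI_S467A-dTA1 cells (-0.88, adjusted p = 0.00339, and -1.57, adjusted p = 0.0155), and Ikbke at 8 h in RelA-TA2_CI_S467A-dTA1 cells (-1.06, adjusted p = 0.103 without the block and 0.00134 with it). Averaged over 3 backgrounds, loss of TA1 went with a lower response of Ikbke by 0.51 ± 0.14 (adjusted p = 0.459, or 0.009 with the block) and of Map3k8 by 0.96 ± 0.25 (0.35, or 0.016 with the block). No member was called for the averaged CI or S467A change, with or without the block.

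Map3k14 and Chuk at 8 h were highest in the single-library constructs where Ikbke was lowest. Map3k14 held 59.3 CPM in RelA-DB, 64.2 CPM in RelA-dCterm, 47.4 CPM in RelA-TA2_CI-dTA1 and 54.1 CPM in RelA-TA2_CI_S467A-dTA1 cells, and 28.9, 25.9 and 29.7 CPM in RelA-TA2_CI, RelA-TA2_S467A and RelA-TA2_CI_S467A cells. Chuk held 92.4, 98.0, 75.6 and 77.2 CPM in the first 4 of these and 66.5, 63.8 and 64.8 CPM in the other 3. In both genes RelA-DB, RelA-dCterm and the 2 TA2 forms with dTA1 stood above the 3 other TA2 forms. The 8 h difference of Map3k14 from RelA-WT was 1.45 ± 0.51 in RelA-dCterm cells (adjusted p = 0.0753, or 0.000143 with the block, edgeR) and 1.15 ± 0.50 in RelA-DB cells (0.17, or 0.00181). For Chuk it was 0.60 ± 0.20 in RelA-dCterm (0.0557, or 0.0173) and RelA-DB cells (0.0564, or 0.02). For Map3k14 it was 1.08 ± 0.46 in RelA-TA2_CI_S467A-dTA1 cells (0.465, or 0.000904) and 0.88 ± 0.47 in RelA-TA2_CI-dTA1 cells (0.491, or 0.00869).

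The level of Tbk1 at 3 h was lower in those 4 constructs than in the 3 other TA2 forms. It held 45.1 CPM in RelA-DB, 40.3 CPM in RelA-dCterm, 46.9 CPM in RelA-TA2_CI-dTA1 and 48.8 CPM in RelA-TA2_CI_S467A-dTA1 cells. It held 58.6 CPM in RelA-TA2_CI, 65.9 CPM in RelA-TA2_S467A and 63.9 CPM in RelA-TA2_CI_S467A cells, near the 66.0 and 67.0 CPM of RelA-WT cells. The log2 change from the construct's own 0 h library did not separate them in the same way. It was 0.36 in RelA-DB cells, which started lowest with 35.0 CPM, 0.04 in RelA-dCterm, 0.10 in RelA-TA2_CI-dTA1 and 0.09 in RelA-TA2_CI_S467A-dTA1 cells, and 0.35, 0.60 and 0.45 in RelA-TA2_CI, RelA-TA2_S467A and RelA-TA2_CI_S467A cells. RelA-DB and RelA-dCterm are from set 1 and the TA2 forms from set 2.

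**Figure D4:**
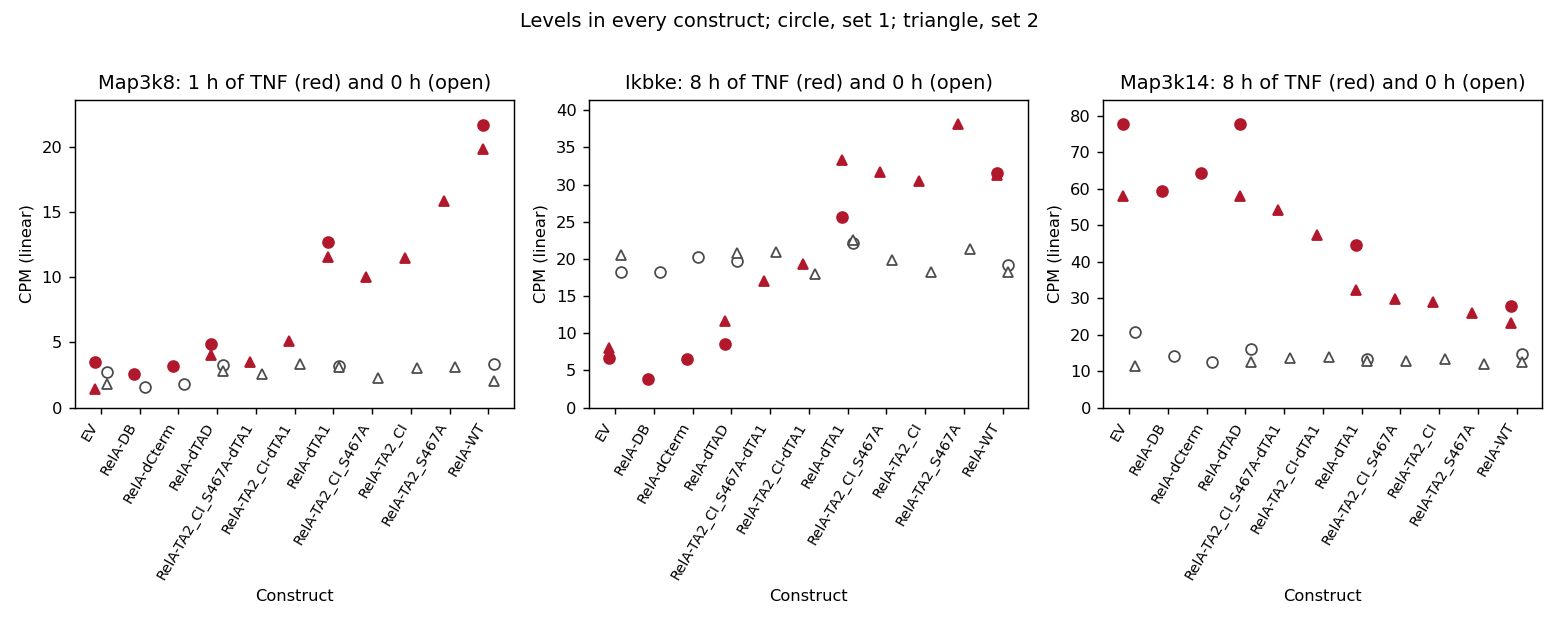
Levels in CPM (vertical axis) of Map3k8 at 1 h, Ikbke at 8 h and Map3k14 at 8 h (red), beside 0 h (open), in each of the 11 constructs (horizontal axis). Circles are set 1, triangles set 2 and each point is 1 library. At the times shown, RelA-DB and RelA-dCterm lie nearer to EV than to RelA-WT in all 3 genes, at 2.56 and 3.17 CPM for Map3k8 and 3.82 and 6.49 CPM for Ikbke. Both lie below the EV libraries for Ikbke. At 0.5 h, not shown, Map3k8 in RelA-dCterm stood at 3.20 times its 0 h level, against 1.24 and 1.82 times in EV (set 1 and set 2).

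The other genes of the pathway are given as lists, by how many passed the test over the 4 times. In the TNF receptor and ubiquitin complex, 1 of 12 tested genes rose in EV cells, Ripk1, and 3 of 12 rose in RelA-WT cells, with none falling. Birc3, which encodes the ubiquitin ligase cIAP2, rose by 2.04 ± 0.13 in RelA-WT cells (adjusted p = 4.77e-11, edgeR), Birc2 (cIAP1) by 0.75 ± 0.14 (0.000812) and Traf2 by 0.39 ± 0.10 (0.0117). The response in EV cells was below that in RelA-WT cells by 1.84 for Birc3 and by 0.95 for Birc2. These ligases also mark NIK for degradation, and at 8 h the Birc2 change was -0.58 in EV cells and 0.88 in RelA-WT cells and that of Birc3 0.97 in EV cells and 2.799 in RelA-WT cells. With the replicate block 5 of the 12 rose in RelA-WT cells over the 4 times, and 1 in EV cells.

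Of 10 partners, chaperones and regulators of IKK and TBK1, 4 rose in EV cells and 3 in RelA-WT cells, with none falling. In EV cells these were Hsp90aa1 (0.57), a chaperone of the IKK complex, Tank (0.50), Traf3 (0.34) and Azi2 (0.22), and in RelA-WT cells Optn (0.92), Traf3 (0.89) and Tank (0.56). With the replicate block 4 rose in EV cells and 6 in RelA-WT cells. TANK, AZI2 and optineurin bind TBK1, and TRAF3 holds NIK for degradation. Of 7 binding partners and substrates of the Map3k8 and Map3k14 products, 3 rose in EV cells, Nfkb2 (0.58), Otud7b (0.34) and Nfkb1 (0.29), and 3 in RelA-WT cells, Relb (1.78), Nfkb2 (1.52) and Nfkb1 (1.02). With the replicate block 6 of the 7 rose in EV cells and 4 in RelA-WT cells, and that fit also called more of all genes in EV than in RelA-WT cells. Nfkb1 encodes p105, which restrains TPL2, and Nfkb2 encodes p100, which NIK signalling processes.

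Of 10 substrates and inhibitors of IKK and TBK1, 2 rose in EV cells, Nfkbia (0.61) and Ppp2ca (0.29), and 5 in RelA-WT cells, or 3 and 7 with the replicate block. The 5 were Tnfaip3 (4.48), Nfkbia (3.66), Nfkbie (3.43), Tnip1 (1.34) and Nfkbib (1.12), which encode the ubiquitin editor A20, 3 IkB proteins and an A20 partner. The response was lower in EV than in RelA-WT cells for Tnfaip3 (-3.78), Nfkbie (-3.10), Nfkbia (-3.05) and Tnip1 (-1.46). Of 13 other MAP3K kinases tested, 1 rose in EV cells, Map3k20 (0.24), and none moved past the test in RelA-WT cells, while with the replicate block 3 rose and 1 fell in EV cells and 1 rose and 1 fell in RelA-WT cells. Without the block, the shares of all genes that rose were 8.42% in EV and 6.26% in RelA-WT cells. With it more of all genes were called in both constructs, in numbers given in the closing section. Those numbers join genes that rose and genes that fell, and they are larger in EV than in RelA-WT cells. The block counts of the lists thus stand beside a larger background and are not compared between the constructs.

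By log2 CPM over the 20 group means, Chuk was nearest to Etf1 (r = 0.991), Hnrnpab (0.990) and Zfp593 (0.987), and Ikbkg to Atoh8 (0.949). Map3k7 was nearest to Pxdn (0.955), Tab1 to Zfp157 (0.913) and Tab2 to Kirrel (0.892).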

How the data were processed

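Gene-level read counts of 75 RNA-seq libraries were used as the authors deposited them, in 2 tables named here as set 1 and set 2. Per the labels' protocols, 1 µg of RNA went into a stranded mRNA kit with 12 PCR cycles and 50-base single-end reads. The submitters' processing notes name cutadapt 1.9.1, STAR, featureCounts 1.5.0, DESeq2 and the mm10 build, and whether reads were counted by strand is not given in the sources used here.

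The counts were tested with edgeR 4.0.16 in R 4.3.3 (TMM, filterByExpr, robust quasi-likelihood test, 1 mean per construct and time, adjusted p over all genes tested, threshold 0.05). One fit held the 40 libraries of the replicated constructs (13665 genes) and one all 75 (15090 genes). The standard error was taken as the log2 change divided by the root of its F value. CPM were scaled with TMM over 75 libraries. The script was tested on simulated counts.

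Each replicate number is a deposited set, and when each library was set against its group's mean, libraries of 1 number deviated together in all 190 pairs of groups (r = 0.29 to 0.55, median 0.41), so the number pairs the samples. The fit with it as a block is given beside the responses of the replicated constructs, and their differences from RelA-WT, whose call it changes, and beside the differences of the single-library constructs. Other alternatives were RLE size factors, DESeq2 1.42.0, no filter, a fit that is not robust, no 8 h libraries, leaving out each replicate, and RelA-WT of the same set only. The named genes are the 10 members, up to 5 genes per pathway list with the largest RelA-WT response past the threshold (and those called in EV), and the 3 genes most like a member. The members and lists were chosen with earlier results of these data known. Of 45706 entries, 45143 had a symbol. Low counts such as those of Map3k8 carry more counting error, beside the spread between libraries.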

Additional observations from a re-analysis of the deposited data

Results flagged for a closer look

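Results whose TNF response differed between 2 constructs by a test of the difference itself (edgeR, adjusted p under 0.05) are gathered here as log2 differences, with errors and adjusted p in the report. For Ikbke, the response minus that of RelA-WT cells was -1.70 in EV and -1.63 in RelA-dTAD cells at 3 h, and -2.08 in EV and -1.70 in RelA-dTAD cells at 8 h. Over the 4 times it was -1.16 in EV and -1.005 in RelA-dTAD cells. In the single-library constructs it was -3.003 in RelA-DB and -2.39 in RelA-dCterm cells at 8 h, and -1.35 and -1.26 over the 4 times. The Ikbke response of RelA-dTA1 minus that of RelA-dTAD cells was 1.1 at 3 h and 1.37 at 8 h.

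For Tbk1 the response minus that of RelA-WT cells at 3 h was -0.52 in EV and -0.59 in RelA-dTAD cells. For Map3k8 it was -2.32 in RelA-dTAD cells at 0.5 h, -3.01 in EV and -2.44 in RelA-dTAD cells at 1 h, and -2.20 and -1.66 in EV cells at 3 and 8 h. Over the 4 times it was -2.28 in EV and -1.81 in RelA-dTAD cells. For Map3k14 at 8 h it was 1.24 in EV and 1.37 in RelA-dTAD cells, the one gene of the 4 with a larger response than in RelA-WT cells.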

How the results depend on the processing

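No result changed its direction past the threshold. Counts of genes called over the 4 times moved by more than 1.5 times with the replicate block, without 8 h, with no filter and without 1 replicate. At single times DESeq2 called 20 genes, against 11 by edgeR, for RelA-dTAD minus RelA-WT at 0.5 h, and for RelA-dTA1 minus RelA-WT 8 against 0 at 1 h and 1 against 0 at 3 h. Of the added comparisons it moved RelA-dTA1 minus RelA-dTAD at 1 h (22 against 13) and RelA-dTAD minus EV at 8 h (5 against 1), and it called Map3k8 for EV minus RelA-WT at 0.5 h (adjusted p = 0.00646) and Map3k14 in RelA-dTA1 cells at 1 h (0.0224). Leaving out the 8 h libraries gave, for the mean response, 0 members and 119 genes in EV, 0 and 112 in RelA-dTAD, 387 genes in RelA-dTA1, and 2 members and 556 genes in RelA-WT cells. For the difference from RelA-WT it gave 87 genes in EV and 1 member and 61 genes in RelA-dTAD cells. With no filter the differences had 410 genes in EV, 303 in RelA-dTAD and 21 in RelA-dTA1 cells.

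Leaving out 1 replicate gave 1 to 4 members and 306 to 1800 genes for the EV response, 0 to 3 and 278 to 1433 in RelA-dTAD, 0 to 3 and 303 to 1339 in RelA-dTA1, and 1 to 5 and 369 to 1128 in RelA-WT cells. The differences had 0 to 2 members and 59 to 231 genes in EV, 0 to 2 and 28 to 130 in RelA-dTAD, and 0 to 1 genes in RelA-dTA1 cells.

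The replicate block raised the counts. The response then had 4316 genes in EV, 4095 in RelA-dTAD, 6 members and 3795 genes in RelA-dTA1, and 3125 genes in RelA-WT cells, and the differences 833 in EV, 633 in RelA-dTAD and 4 in RelA-dTA1 cells. In the single-library constructs the response had 4 members and 2227 genes in RelA-DB, 3 and 1559 in RelA-dCterm, 2 and 1427 in RelA-TA2_CI, 4 and 1889 in RelA-TA2_S467A, 2 and 2089 in RelA-TA2_CI_S467A, 3 and 2253 in RelA-TA2_CI-dTA1, and 2 and 1754 in RelA-TA2_CI_S467A-dTA1 cells. Their differences had 391 genes in RelA-DB, 279 in RelA-dCterm, 2 members and 145 genes in RelA-TA2_CI-dTA1, and 2 members and 111 genes in RelA-TA2_CI_S467A-dTA1 cells, and the averaged effects 32 genes for CI and 2 members and 108 genes for dTA1. Among single-gene results the block turned 92 into calls, left 818 on their side of the threshold and ended 0, so it changed no call other than these. The block removes the spread between the 2 sets from the error; the cause of the other changes was not tested.

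The groups hold 2 libraries or 1, and the set 1 libraries are shallower, so small changes and the low counts of Map3k8 are the least certain. RLE size factors shifted the median of all genes by at most 0.0359 on the log2 scale.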
